A study of Homo sapiens with 24 samples.

Results

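The step from 4 h to 8 h after replating was examined in HepaRG cells, as the difference between the 3 arrays titled 8 h and the 3 arrays titled 4 h out of 24 arrays in the series. All 22215 probe sets that are not controls entered, and 9966 genes could be tested. HepaRG is a human liver progenitor line that can be driven to form hepatocyte-like cells in culture. All groups had been grown for 2 weeks in medium with serum, insulin and hydrocortisone hemisuccinate and kept for another 2 weeks with 2% DMSO added. The hepatocyte-like cells were then lifted off by mild trypsin treatment and plated sparsely, a step the labels describe as inducing reprogramming. By the labels, the 4 h and 8 h groups differ only in the time since that plating, and the remaining groups were collected at 0, 1, 12, 16, 24 and 48 h. The cells come from 1 cell line, and the labels do not say whether the 3 replicates of a time were separate cultures, so p-values measure only the spread between these arrays, which may be technical.

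When liver cells are taken out of a dense culture and plated again, they respond to detachment and wounding by switching on immediate early transcription factors, NF-kappaB targets and chemokines. Much of this first response is shut off again by feedback inhibitors that it induces itself. Cells that then spread and leave quiescence build up actin and adhesion components, protein-folding and nucleotide-synthesis capacity and replication factors, while mature liver functions such as drug metabolism decline. Insulin and glucocorticoid, which were part of the culture medium, are among the hormonal regulators of the fasting genes of the liver.

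The arrays had a median signal of 121.8 ± 6.50 (4 h) and 118 ± 6.59 (8 h; SD, n = 3). Log2 values correlated across genes at 0.946 to 0.949 within 4 h, at 0.947 to 0.948 within 8 h and at 0.928 to 0.936 between the times. As a measure of RNA integrity, the 3' control signal of ACTB was divided by its 5' signal, and the quotient, which goes up when RNA is degraded, came to 1.73 ± 0.39 for the 4 h arrays and 1.31 ± 0.14 for the 8 h arrays (SD, n = 3). An exact two-sided permutation test gave p = 0.2. For GAPDH it was 1.02 ± 0.097 and 1.26 ± 0.21, with every 8 h array above every 4 h array. The same exact test gave p = 0.1, the smallest that 3 against 3 can give, and the part of this difference in the results was not tested. The array closest to 8 h replicate 1 was 12 h replicate 2 (r = 0.95), and each of the other 4 h and 8 h arrays was closest to an array of its own time. In these bulk samples, fewer cells of a kind and less RNA per cell cannot be told apart.

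Over the step, some members of the early response, chemokine, fasting and drug metabolism lists came down. Some members of the cytoskeleton, cytosolic chaperone, nucleotide synthesis and DNA replication lists came up. At an adjusted p under 0.05 and a difference of at least 2-fold, 128 genes were called higher at 8 h (1.28% of those tested) and 193 lower (1.94%). At the same adjusted p with no demand on fold, 551 were higher (5.53%) and 537 lower (5.39%), and the median log2 change of all genes was 0.003. The 3 arrays of 8 h lay above all 3 of 4 h in 13.5% of genes and below them in 13.4%, and this held for 120 of the 128 called higher and 186 of the 193 called lower. Below, a gene is said to have risen or fallen where its adjusted p was under 0.05, and to have been called where it also reached 2-fold. Counts of list members below are to be read beside the shares of all genes just given. Genes marked "named later" were chosen after their values were seen, and log2 changes are of signal + 18, which understates those of dim genes.

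**Figure D1:**
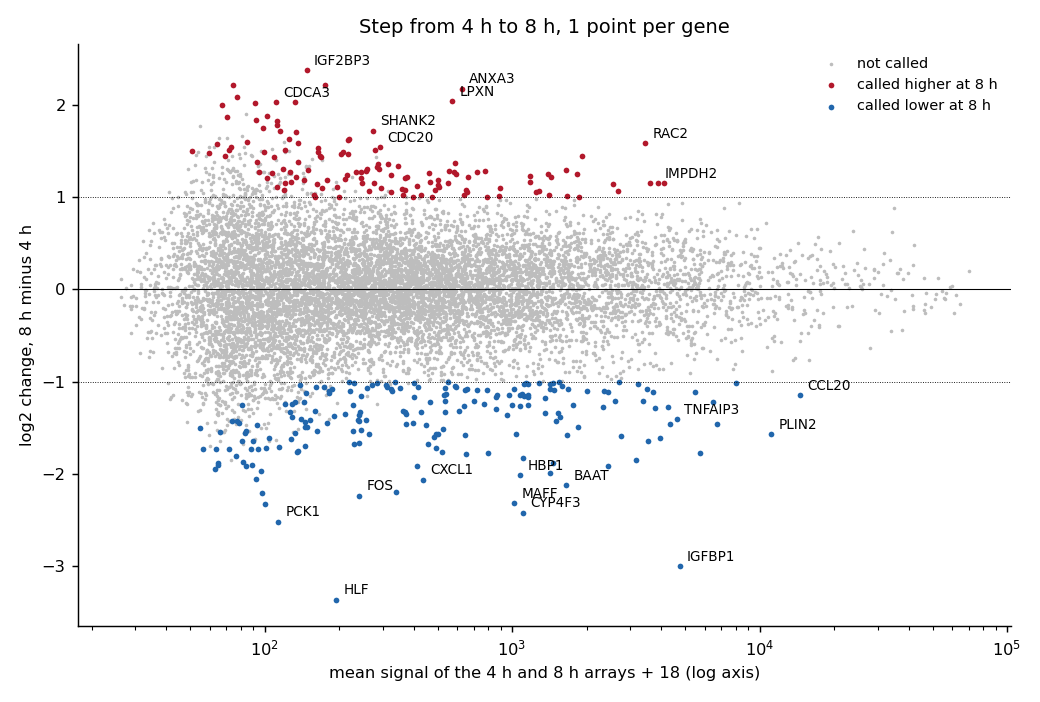
Log2 change from 4 h to 8 h of each of 9966 genes (vertical axis) against its mean signal over the 6 arrays plus 18 (horizontal log axis); red and blue points are the 128 genes called higher and the 193 called lower, and dotted lines mark 2-fold. HLF and IGFBP1 lie lowest, and most of the steepest rises are of dim genes, while ANXA3, LPXN and RAC2 rise at higher signals.

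The steepest falls were in genes of quite different function. HLF, a PAR bZIP transcription factor with a daily rhythm in liver, gave signals of 263, 352 and 395 at 4 h and 5.38, 18.3 and 28.7 at 8 h, a log2 change of -3.36 ± 0.43 (SE, adjusted p = 2.7e-06). The 8 h values all lay far below the lowest 4 h value, and the other HLF probe sets gave log2 changes of -1.12 and -3.13. IGFBP1, a secreted binding protein of insulin-like growth factors that insulin represses, went from signals of 10111, 6242 and 8760.5 to 1748, 634 and 926, a log2 change of -3.0 ± 0.33 (SE, adjusted p = 1.4e-07). It was the brightest of the genes that fell over 4-fold. PCK1, the entry enzyme of gluconeogenesis, had 179, 159.6 and 179 at 4 h and 5.23, 7.02 and 44.8 at 8 h, a log2 change of -2.52 ± 0.42 (SE, adjusted p = 1.2e-04), and 2 of its 8 h values were under 18. In all, 13 genes were called lower by at least 4-fold and 9 higher by that much.

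Besides these and the genes described with their groups below, the 20 largest falls with no overlap included PPL, which encodes the desmosome-linked protein periplakin, with 562, 589 and 437 at 4 h and 36.8, 163 and 151 at 8 h (-2.19). HBP1, a transcriptional repressor of cell cycle genes, had 1665, 1708 and 1762 at 4 h and 361, 462 and 415 at 8 h (-2.01, adjusted p = 5.1e-09). The HBP1 values lay close together within each time. PLPP3, a phosphatase of extracellular lipid mediators, had 3663, 4072 and 3814 at 4 h and 872, 1162 and 1016 at 8 h, and its 3 probe sets fell alike (-1.91, -1.86 and -1.83). RGCC, a regulator of cell cycle progression, fell by 1.92 and was not called without a pseudocount. The other members, NRTN, ICOSLG, TBC1D8B, SLC22A17, FRK, SCUBE3 and KCNJ8, were dim, with 4 h means from 82.2 for FRK to 147 for NRTN. NRTN, ICOSLG and TBC1D8B kept their call in all 16 settings. Of 15 settings, FRK kept it in 14, SCUBE3 in 10, KCNJ8 in 9 and SLC22A17 in 8. The other KCNJ8 probe set gave 0.345 and did not pass, so its direction is uncertain.

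Chemokine and NF-kappaB response genes fell and none rose. Of 23 tested NF-kappaB feedback and response genes, 6 were called lower (NFKBIA, NFKB1, TNFAIP3, ICAM1, BCL2A1 and TNFAIP8) and 9 fell at any fold. Of all genes, 1.94% were called lower and 5.39% fell. BCL2A1 kept its call in 10 of 16 settings. It was lost without a pseudocount, without 4 h replicate 1 or 2, and without any single 8 h replicate. The list median was -0.50, against 0.003 for all genes. Of 19 cytokines and chemokines, 6 were called lower, all of them chemokines (CCL2, CCL20, CXCL1, CXCL2, CXCL8 and CXCL10), and 8 fell at any fold with IL18 and TNFSF10 added; the list median was -0.56.

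Among the chemokine ligands, CXCL1, which attracts neutrophils, had signals of 488, 854 and 737 at 4 h and 153, 136 and 156 at 8 h, a log2 change of -2.06 ± 0.26 (SE, adjusted p = 1.5e-06). The groups were far apart, and the 8 h arrays were within a narrow band. CXCL10, a ligand that recruits T cells, had 928, 1702 and 1027 at 4 h and 218, 368 and 451 at 8 h, a log2 change of -1.77 ± 0.27 (SE, adjusted p = 2.8e-05). CCL20, a ligand for lymphocytes and dendritic cells, was bright, with 18895, 20645 and 20418 at 4 h and 10717, 8160.5 and 8356 at 8 h, a log2 change of -1.15 ± 0.29 (SE, adjusted p = 0.0083), with high signals at both times. The CCL20 call was lost with no variance trend. CCL2, which attracts monocytes, had 2845, 3449.9 and 3510.3 at 4 h and 1426, 1236 and 1349 at 8 h (-1.27, adjusted p = 1.1e-04). CXCL2 fell by 1.5 and CXCL8 by 1.46 on the log2 scale, both read from probe sets open to cross-hybridization and so uncertain. The other CXCL8 probe set gave -1.48. The CXCL8 call was lost with no variance trend and without 4 h replicate 1, the highest of the 3 with signals of 15280.0, 7168 and 7539. CXCL3 (named later) had 223, 169 and 175 at 4 h and 135, 109 and 65.6 at 8 h, with no overlap but an adjusted p of 0.31. IL6 had 181, 159.7 and 213 at 4 h and 151, 123 and 137 at 8 h (adjusted p = 0.47).

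The feedback inhibitors of NF-kappaB fell in the same step. TNFAIP3, the ubiquitin-editing inhibitor A20, had signals of 5932, 5099.6 and 9205 at 4 h and 2768, 2025 and 2618 at 8 h, a log2 change of -1.41 ± 0.21 (SE, adjusted p = 2.7e-05). Its lowest 4 h value was well above its highest 8 h value, and its other probe set gave -1.11. NFKBIA, the inhibitor that holds NF-kappaB in the cytoplasm, had 9674, 8544 and 8922 at 4 h and 3269, 3758 and 4723 at 8 h, a log2 change of -1.22 ± 0.17 (SE, adjusted p = 5.3e-06). NFKB1, which encodes the p105 and p50 subunit (named later), had 1971, 1116 and 1427 at 4 h and 713, 614 and 651 at 8 h (-1.13, adjusted p = 0.0039), and was not called without 4 h replicate 1. ICAM1, an adhesion receptor for leukocytes, fell by 1.26, with -1.46 and -0.24 on its other probe sets. RIPK2 and RCAN1 (named later) fell by 0.92 and 0.91, short of 2-fold. The other RIPK2 probe set gave 0.41, and over the settings tried its adjusted p reached 0.58. IFNGR1, a chain of the interferon gamma receptor that stands in no list (named later), went from 4936, 4482 and 4703 to 1692, 1951 and 2499 (-1.21, adjusted p = 2.0e-06).

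The promoters of these genes were read from RefSeq (GRCh38.p14), from 250 bases before to 50 after the start, for the letters GGANNTTCC of a kappaB-like site on either strand; a run such as GGAAATTCC matches on both. A promoter was found for 11 of the 12 called genes of the NF-kappaB and cytokine lists, and 8 of the 11 (72.7%) held a match. The letters stood in 10 of 20 promoters (50.0%) of members not called lower, in 6.44% of the 8116 promoters of tested genes and in 5.57% of the 27305 genes with a promoter in the table. They were in 14.6% of the promoters of all genes called lower and in 9.80% of those called higher. Such letters are a known feature of NF-kappaB responders, as which the first list was drawn up. A match describes the sequence and not binding. The windows below show the match in capitals with 25 bases on each side, for the genes whose fall is described above, given 5' to 3' on the strand of the gene.
CXCL1 (chr4:73869290-73869348, plus strand): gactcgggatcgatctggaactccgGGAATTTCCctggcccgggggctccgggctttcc
CXCL2 (chr4:74099239-74099297, minus strand): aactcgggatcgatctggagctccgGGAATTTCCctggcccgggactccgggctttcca
CXCL8 (chr4:73740453-73740511, plus strand): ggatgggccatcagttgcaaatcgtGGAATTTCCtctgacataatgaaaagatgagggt
CXCL10 (chr4:76023640-76023698, minus strand): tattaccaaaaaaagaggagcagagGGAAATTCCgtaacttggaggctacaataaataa
NFKB1 (chr4:102501286-102501344, plus strand): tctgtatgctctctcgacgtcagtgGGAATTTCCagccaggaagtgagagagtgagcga
TNFAIP3 (chr6:137867167-137867225, plus strand): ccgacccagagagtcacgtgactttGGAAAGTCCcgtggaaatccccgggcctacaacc
NFKBIA (chr14:35404797-35404855, minus strand): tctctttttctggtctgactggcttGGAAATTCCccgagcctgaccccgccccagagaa
ICAM1 (chr19:10270909-10270967, plus strand): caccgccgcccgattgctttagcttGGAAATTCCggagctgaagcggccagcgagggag
The windows of CXCL1, CXCL2, CXCL8 and NFKB1 carry the same 9 letters, and those of CXCL10, NFKBIA and ICAM1 carry their reverse complement, which is the same double-stranded run in the other orientation. NFKBIA holds a second match, 242 bases before its start, that is not shown. For example, the match lies 78 bases before the start in CXCL1, 77 in CXCL2, 91 in CXCL8 and 67 in TNFAIP3.

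**Figure D2:**
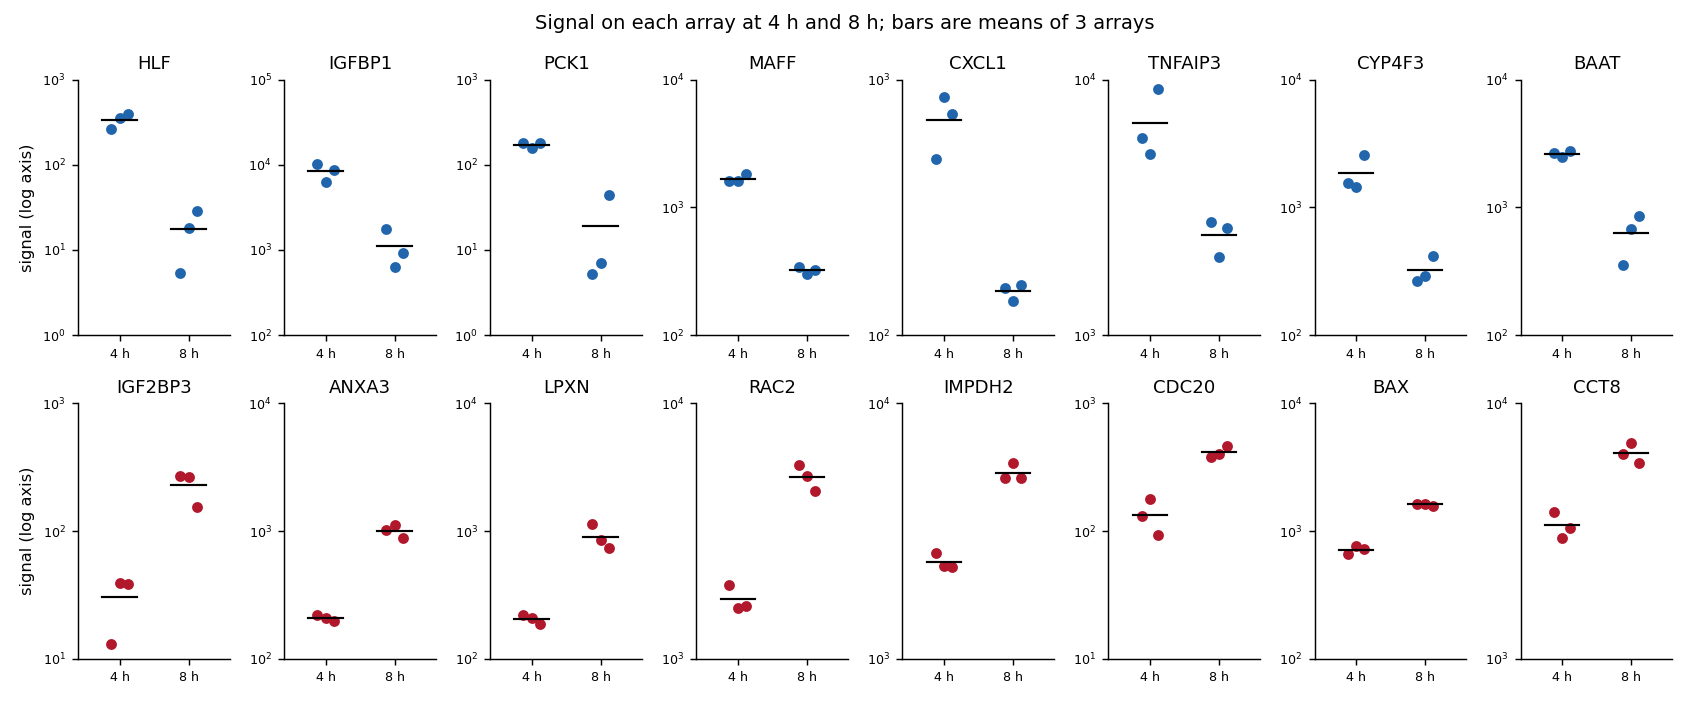
Signal on each of the 3 arrays of 4 h and 8 h (points, log axis) for 16 genes, with black bars at the mean; blue genes are lower at 8 h and red genes higher. In none of the 16 panels do the points of the 2 times overlap. The panels show chosen genes, and for those taken from the largest rises and falls lack of overlap was a condition. Of all tested genes, 13.5% had all 3 arrays of 8 h above those of 4 h and 13.4% had them below.

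Immediate early transcription factors and feedback regulators of MAP kinase signalling also fell. Of 40 immediate early genes, 4 were called lower (FOS, FOSB, MAFF and NR4A2), 16 fell at any fold, none rose, and the list median was -0.43. Without 8 h replicate 3 only FOS and MAFF of the 4 were called. Of 17 genes of ERK and MAP kinase feedback, DUSP5 and PHLDA1 were called lower, 9 fell at any fold, none rose, and the median was -0.62. PHLDA1 kept its call in 10 of 16 settings. By group of function, the fall at any fold took in AP-1 subunits (FOS, FOSB, FOSL1, JUN and JUND), Kruppel-like factors (KLF5 and KLF10), C/EBP factors (CEBPB and CEBPD) and dual-specificity phosphatases (DUSP1, DUSP5, DUSP6 and DUSP14).

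MAFF, a small bZIP partner of other bZIP factors, had signals of 1615, 1609.9 and 1828 at 4 h and 343, 303 and 324 at 8 h, a log2 change of -2.32 ± 0.30 (SE, adjusted p = 2.2e-06), and its other probe set gave -1.22. Its values were close together within each time and far apart between them. FOS had 287, 453 and 377 at 4 h and 21.4, 128 and 76.7 at 8 h, a log2 change of -2.23 ± 0.43 (SE, adjusted p = 6.8e-04), on the way down from 6616 ± 2604 at 0 h (mean ± SD, n = 3). JUN, read from a probe set open to cross-hybridization and so uncertain, had 4702, 3641 and 4622 at 4 h and 2085, 3259.9 and 2123 at 8 h (-0.81, adjusted p = 0.027), and its other probe sets gave -0.79, -0.77 and -0.70, none of them past the threshold. ATF3, a stress-induced repressor, fell by 0.81 (adjusted p = 0.035). EGR1, KLF4 and MYC did not pass the test, at -0.32, -0.07 and -0.26; MYC had 6131, 5073 and 4499 at 4 h and 3908, 4374 and 4771 at 8 h, with overlap.

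DUSP5, a nuclear phosphatase of ERK, had 4292, 3390.0 and 3187 at 4 h and 1684, 1402 and 1567 at 8 h, a log2 change of -1.21 ± 0.34 (SE, adjusted p = 0.019). The call was lost without 4 h replicate 1, without 8 h replicate 2, with no pseudocount and with no variance trend. DUSP1, which acts on JNK and p38, was brighter, with 22879, 19196 and 17321 at 4 h and 8824, 12135 and 14364 at 8 h (-0.77, adjusted p = 0.0024). SPRY2 (named later), an inhibitor of receptor tyrosine kinase signalling, fell by 0.77. Of 31 EGF family and other growth factor genes, 3 were called lower (FGFR2, INHBB and NRG1), against 1.94% of all genes. Short of 2-fold, 3 rose (PDGFA, PDGFC and GDF15, the last from an uncertain probe set), where 5.53% of all genes rose. INHBB, a subunit of activins, had 1598, 1776 and 1376 at 4 h and 585, 727 and 774 at 8 h, a log2 change of -1.17 ± 0.19 (SE, adjusted p = 6.2e-05). HBEGF and EREG, ligands of the EGF receptor, had log2 changes of -0.10 and -0.76, and neither passed.

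Several fasting and insulin-repressed genes fell over the step. Of 21 insulin-repressed and FOXO-linked genes, 5 were called lower (IGFBP1, PCK1, G6PC1, PPARGC1A and TRIB1), 9 fell at any fold, and 2 were called higher (SESN1 and ANGPTL4). The list median was -0.67. Of 16 genes of gluconeogenesis and glycogen, 3 were called lower (PCK1, G6PC1 and PPARGC1A, all FOXO-linked genes as well), 6 fell at any fold and GBE1 rose. With a larger pseudocount IGFBP1, PCK1 and TRIB1 were still called and G6PC1 and PPARGC1A, both dim, were not.

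G6PC1, the catalytic subunit of glucose-6-phosphatase, had 227, 145 and 240.4 at 4 h and 62.1, 50.7 and 81.4 at 8 h, a log2 change of -1.41 ± 0.38 (SE, adjusted p = 0.014). PCK2, the mitochondrial counterpart of PCK1 (named later), had 2919, 3366 and 4040.1 at 4 h and 1928, 1872 and 2333 at 8 h (-0.74). TRIB1, a pseudokinase that regulates hepatic lipid synthesis (named later), had 2212, 2208 and 2409 at 4 h and 1067, 1181 and 957 at 8 h, a log2 change of -1.08 ± 0.25 (SE, adjusted p = 0.0036). INSR, the insulin receptor (named later), had 952, 1232 and 1452 at 4 h and 605, 579.6 and 597 at 8 h (-0.99, adjusted p = 0.0044), short of 2-fold. IRS2 had 2453, 3074 and 2707 at 4 h and 2160.4, 1999 and 2769.7 at 8 h with overlap (-0.26). PDK4 and TXNIP did not pass (-0.78 and -0.78). ANGPTL4, a secreted inhibitor of lipoprotein lipase, went the other way with 944, 777 and 649.9 at 4 h and 2725, 1749 and 1396 at 8 h, a log2 change of 1.25 ± 0.19 (SE, adjusted p = 3.8e-05), and was not called without 8 h replicate 1.

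Some genes outside the lists that fell are given singly (all named later), and no count stands behind them as a group. PLIN2, the main coat protein of lipid droplets in hepatocytes, had 16777, 16000.5 and 17216 at 4 h and 6123, 5098 and 5657 at 8 h, a log2 change of -1.57 ± 0.15 (SE, adjusted p = 1.4e-08); its other probe set, which can cross-hybridize, gave 0.17. G0S2, an inhibitor of the lipase ATGL, had 6465, 6213 and 6314 at 4 h and 2746, 2692 and 1637 at 8 h (-1.46, adjusted p = 9.3e-06). PPARG, a lipid-sensing nuclear receptor, had 816, 629 and 758 at 4 h and 203, 248 and 256 at 8 h, a log2 change of -1.57 ± 0.24 (SE, adjusted p = 2.7e-05). The 3 genes had their highest mean of the course at different points: PLIN2 at 1 h, and G0S2 and PPARG at 4 h. GHR, the growth hormone receptor, fell from 729, 1085 and 1176 to 226, 268 and 325 (-1.79). IGFBP3, which growth hormone signalling sustains in the circulation, fell from 2272, 2129 and 2162 to 918, 833 and 817 (-1.34). DEPTOR, an inhibitor of mTOR, fell from 544, 479.8 and 644 to 129, 184 and 288 (-1.45).

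Of 17 genes of the circadian clock and PAR bZIP list, 4 were called lower (PER2, CRY1, NR1D2 and HLF) and CSNK1E, a kinase of PER proteins, was called higher. With a larger pseudocount or without 4 h replicate 3 only CRY1 and HLF of the 4 were called. CRY1, a repressor of the clock, had 483, 654 and 416 at 4 h and 182, 154 and 237 at 8 h, a log2 change of -1.35 ± 0.24 (SE, adjusted p = 3.1e-04). PER2, its partner, had 376, 415 and 481 at 4 h and 172, 198 and 204 at 8 h (-1.08, adjusted p = 0.0046). DBP, a PAR bZIP relative of HLF, had 31.5, 85.0 and 88.7 at 4 h and 14.6, 132 and 39.1 at 8 h (-0.32, adjusted p = 0.82), so the fall of HLF was not seen in it at these low signals.

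Genes of drug metabolism and other liver functions fell in part, and none of the drug metabolism or plasma protein genes rose. Of 39 tested drug metabolism genes, 8 were called lower (CYP1B1, CYP3A5, CYP3A43, CYP4F3, FMO4, SULT2A1, AHR and ADH1B), 18 fell at any fold, none rose, and the median was -0.54. CYP3A43, read from a probe set open to cross-hybridization and so uncertain, was called in only 5 of 16 settings and ADH1B in 10; the ADH1B call was lost with quantile normalization and with median centring, among others. Of the 39, 36 had a negative log2 change; 49.7% of all genes had a negative change. Of 29 bile acid and lipoprotein genes, BAAT and MTTP were called lower and 5 fell at any fold. Of 38 genes of amino acid breakdown and the urea cycle, TDO2 was called lower and 9 fell. Of 54 secreted plasma proteins and coagulation factors none was called, 9 fell short of 2-fold (5.39% of all genes fell), none rose, 49 had a negative change, and the median was -0.24.

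**Figure D3:**
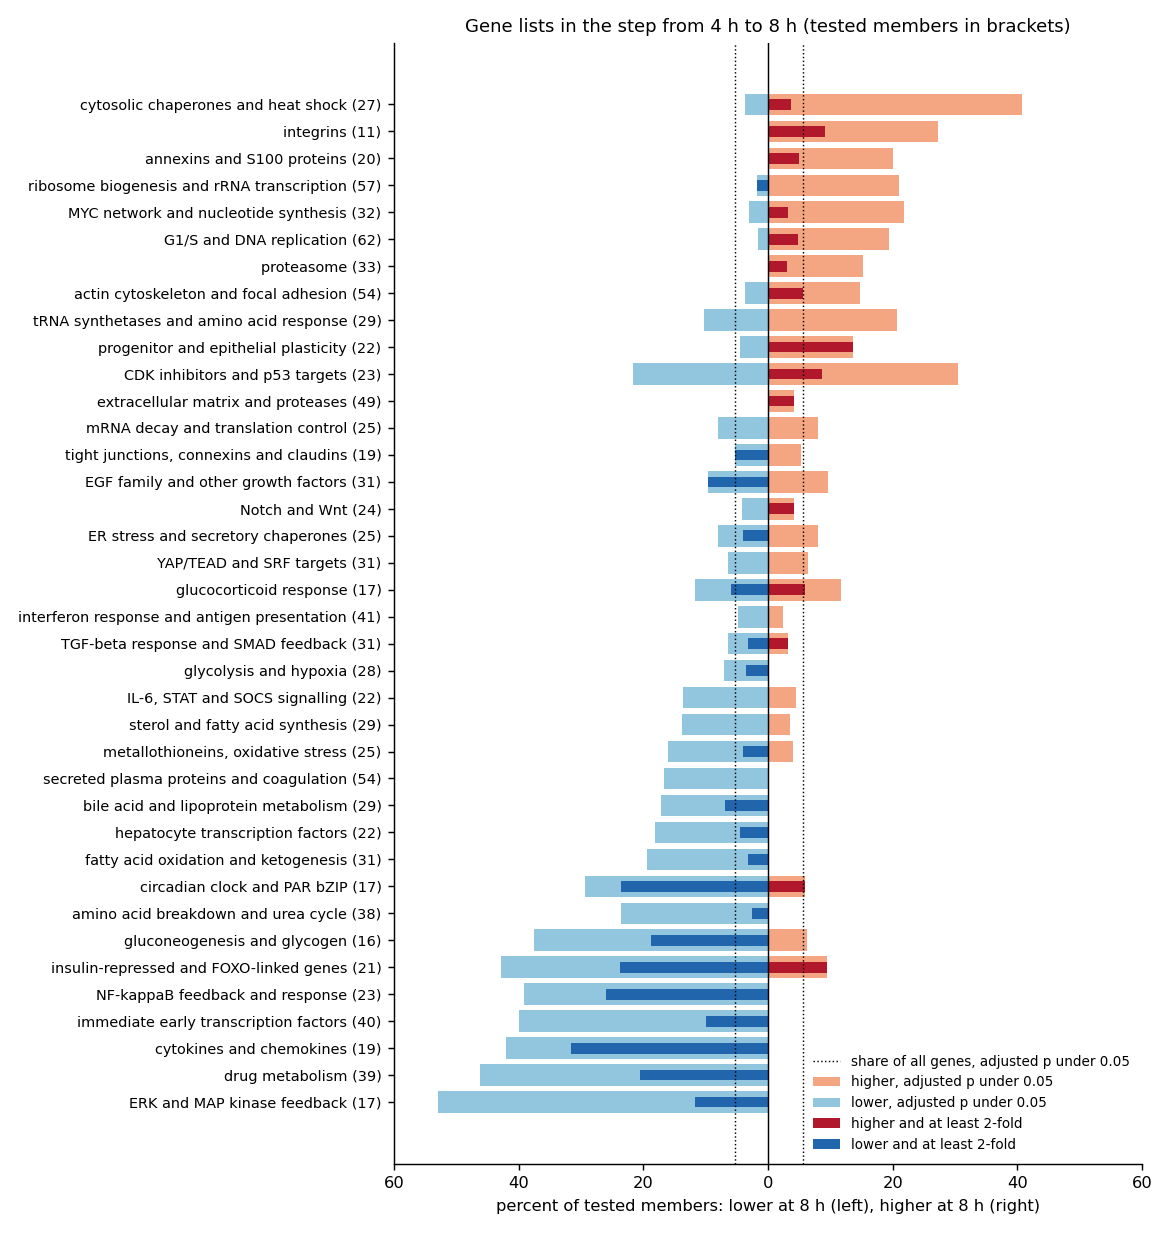
Percent of the tested members of each list that fell (left) or rose (right) at an adjusted p under 0.05 (pale bars) and that also reached 2-fold (dark bars), with the number tested in brackets; dotted lines mark the share of all genes at that adjusted p, 5.53% higher and 5.39% lower. ERK feedback, drug metabolism, FOXO-linked, chemokine, immediate early and NF-kappaB lists reach farthest to the left, and cytosolic chaperones farthest to the right.

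CYP4F3, a fatty acid and leukotriene hydroxylase, had signals of 1540.2, 1442 and 2583 at 4 h and 267, 293 and 418 at 8 h, a log2 change of -2.42 ± 0.24 (SE, adjusted p = 2.7e-08). It fell more than any other member of the list. CYP3A5 had 1536, 1429 and 1641 at 4 h and 568, 540.5 and 417 at 8 h, a log2 change of -1.57 ± 0.15 (SE, adjusted p = 2.3e-08), with -0.48 and -1.20 on its other probe sets. CYP3A4, the main drug-oxidizing cytochrome of adult liver, is uncertain because its probe set can cross-hybridize with its relatives; it had 29532, 37317 and 34458 at 4 h and 18428, 20694 and 26370.1 at 8 h (-0.64, adjusted p = 0.031) and was still bright at 8 h. CYP2B6 and CYP2C8 (named later) fell by 0.80 and 0.84, short of 2-fold. AHR, the receptor for dioxin-like compounds, had 791, 798 and 759 at 4 h and 177, 209 and 279 at 8 h, a log2 change of -1.76 ± 0.19 (SE, adjusted p = 1.4e-07). Its target CYP1B1 had 1617, 1465 and 1468 at 4 h and 737, 723 and 566 at 8 h (-1.16, and -0.99 and -0.99 on its other probe sets). TIPARP, another AHR target (named later), had 2972, 2506 and 2694 at 4 h and 1462, 1063 and 1274 at 8 h (-1.10).

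BAAT, which conjugates bile acids with glycine or taurine, had 2682, 2462 and 2781 at 4 h and 357, 678 and 856 at 8 h, a log2 change of -2.12 ± 0.19 (SE, adjusted p = 4.6e-09). GLYAT, which conjugates acyl groups with glycine in mitochondria, had 1870.5, 2396 and 2470.0 at 4 h and 435, 565 and 666 at 8 h, a log2 change of -1.99 ± 0.29 (SE, adjusted p = 1.7e-05), and its other probe set gave -0.61. MTTP, which loads lipid onto apolipoprotein B, had 1593, 1489 and 1655 at 4 h and 709.7, 744 and 665 at 8 h (-1.14). APOB itself (named later) fell by 0.69. TDO2, the first enzyme of tryptophan breakdown, had 7810.4, 8980.5 and 9892 at 4 h and 2631, 2343 and 2769 at 8 h, a log2 change of -1.77 ± 0.25 (SE, adjusted p = 1.2e-05). CDO1, which oxidizes cysteine (named later), fell by 1.30. GCLC, the catalytic subunit of the enzyme that starts glutathione synthesis, had 6717, 5162 and 6020.2 at 4 h and 2020.0, 1876 and 1909 at 8 h, a log2 change of -1.61 ± 0.14 (SE, adjusted p = 2.3e-09), and its other probe set gave -2.23.

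CYP7A1, which controls the pace of bile acid synthesis, had 14.1, 32.3 and 78.0 at 4 h and 2.13, 2.45 and 15.3 at 8 h and did not pass (adjusted p = 0.13), having been near background at 4 h already. CPS1, which starts the urea cycle (named later), had 825, 1111 and 1298 at 4 h and 864, 493 and 539.8 at 8 h (-0.77), with overlap. ALB, the main plasma protein, had 59163, 58002 and 55844 at 4 h and 56965, 52272 and 58571 at 8 h (-0.04, adjusted p = 0.9). The fibrinogen genes FGB and FGG (named later) fell by 0.46 and 0.44. Of 15 hepatocyte markers, FGB and CYP3A4 fell and none was called. The summed signal of these markers was 436300 to 495500 at 4 h and 407000 to 433800 at 8 h (exact permutation test, two-sided, p = 0.1, the smallest possible), and its part in the fall of the enzymes was not tested. Of 22 hepatocyte transcription factors, HLF was called lower and CEBPB, CEBPD and CEBPG fell; CEBPA had 28.1, 78.9 and 73.7 at 4 h and 46.5, 79.0 and 107 at 8 h, with overlap.

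Several adhesion and cytoskeletal genes rose. Of 54 tested genes of the actin cytoskeleton and focal adhesion, 3 were called higher (ACTN1, RAC2 and ARHGDIB) and 8 rose at any fold. Of all genes, 1.28% were called higher and 5.53% rose. MYH10 and RHOB fell, and 41 of the 54 had a positive change. ARHGDIB kept its call in 12 of 16 settings. That call was lost without 4 h replicate 1, which had 23.8 against 183 and 131, and in the fit of the 6 arrays, among others. Of 11 integrins, ITGA3 was called higher (in 9 of 16 settings) and ITGAV and ITGB5 also rose. The other ITGB5 probe sets gave -0.62, -0.15 and -0.14, and the mean of its sets gave -0.07, so its direction is uncertain. Of 20 annexins and S100 proteins, ANXA3 was called higher, S100A2, S100A10 and S100A11 also rose, none fell, and the median was 0.35.

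ANXA3, a calcium-dependent membrane-binding protein, had signals of 219.9, 208 and 198 at 4 h and 1015, 1123 and 887 at 8 h, a log2 change of 2.17 ± 0.23 (SE, adjusted p = 1.4e-07). LPXN, a focal adhesion adaptor of the paxillin family, had 219, 207 and 187 at 4 h and 1133, 855 and 732 at 8 h, a log2 change of 2.04 ± 0.22 (SE, adjusted p = 1.4e-07). For both genes every 8 h array lay well above every 4 h array, the lack of overlap being a condition of their choice. RAC2, a small GTPase best known from blood cells, had 1940.3, 1584 and 1613 at 4 h and 5754, 5194 and 4546 at 8 h, a log2 change of 1.58 ± 0.22 (SE, adjusted p = 1.0e-05), and its other probe set gave 1.41. ACTN1, an actin crosslinker of focal adhesions, had 1894, 1900.0 and 2945 at 4 h and 5626, 4578 and 4562 at 8 h (1.15, and 0.81 and 1.03 on its other probe sets). ARPC2, a subunit of the Arp2/3 actin nucleator, and MSN, which links actin to the membrane (both named later), rose by 0.94 and 0.71, short of 2-fold. S100A2, an epithelial S100 protein that binds calcium, was the brightest of these genes with 21063, 28542 and 24623 at 4 h and 46924, 43496 and 45248 at 8 h (0.88, adjusted p = 8.1e-05). CLDN1, a tight junction protein, fell in the same step, with 2535, 1991 and 2341 at 4 h and 540.2, 708 and 583 at 8 h, a log2 change of -1.88 ± 0.18 (SE, adjusted p = 9.8e-09), and was the single called member of 19 genes of tight junctions, connexins and claudins.

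A few fetal and matrix genes rose. Of 22 progenitor and plasticity genes, 3 were called higher (NES, IGF2BP3 and HMGA2), against 1.28% of all genes, and PLK2 fell. With a larger pseudocount only IGF2BP3 was called. IGF2BP3, an RNA-binding protein of fetal tissues and tumours, had 13.1, 39.4 and 38.7 at 4 h and 268, 266 and 154 at 8 h, a log2 change of 2.37 ± 0.41 (SE, adjusted p = 1.4e-04), which was the largest rise of the step. Its other probe sets gave 1.32 and 0.99, neither past the threshold. HMGA2, a fetal chromatin protein, had 917, 881 and 909 at 4 h and 2366, 1571 and 1708 at 8 h (1.02). NES, the intermediate filament protein nestin, had 129, 151 and 112 at 4 h and 295, 386 and 295 at 8 h (1.21). The biliary and progenitor markers KRT19, SOX9 and CD44 had changes of 0.16, -0.05 and 0.38 and did not pass.

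POSTN, a matricellular protein, had 326, 277 and 316 at 4 h and 738, 743 and 826 at 8 h, a log2 change of 1.28 ± 0.17 (SE, adjusted p = 2.7e-06). SERPINH1, the collagen chaperone, had 309.9, 379 and 268 at 4 h and 567, 934 and 921 at 8 h, a log2 change of 1.27 ± 0.26 (SE, adjusted p = 0.0012). Of 49 matrix and protease genes, SERPINH1 and LOXL2 rose and were called and none fell; 2 of 49 is no larger a share than the 5.53% of all genes that rose. LOXL2 was called in only 7 of 15 settings and its other probe set gave 0.05. LGALS1, galectin-1 (named later), had 476, 417 and 415 at 4 h and 1228, 1093 and 945 at 8 h (1.28). The summed signal of 14 stellate cell and fibroblast markers was 2518 to 2902 at 4 h and 3708 to 4467 at 8 h (exact permutation test, two-sided, p = 0.1). Of these markers, POSTN and the uncertain DCN rose, 7 of 14 were under a signal of 100 in all 6 arrays, and the mean of COL1A1 was 112.1 at 4 h and 84.8 at 8 h; their part in the changes of POSTN, SERPINH1 and LOXL2 was not tested. None of 8 tested cholangiocyte, 7 endothelial or 11 leukocyte and Kupffer cell markers passed the test in either direction.

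Several genes of cytosolic protein folding, ribosome biogenesis and nucleotide synthesis rose, mostly by less than 2-fold. Of 27 cytosolic chaperones and heat shock genes, 11 rose, HSPB8 fell, and only DNAJB4 was called, with a list median of 0.34. Among the 11 were 7 subunits of the chaperonin CCT, which folds actin and tubulin (CCT2, CCT3, CCT4, CCT5, CCT6A, CCT7 and CCT8). Their log2 changes ran from 0.43 for CCT3 to 0.94 for CCT8. In each of them the 3 arrays of 8 h lay above the 3 of 4 h. This held for 13.5% of all genes, and the 7 were picked as genes that rose. CCT8 (named later) had 3766, 2985 and 3245 at 4 h and 6325, 6971 and 5846 at 8 h, a log2 change of 0.94 ± 0.15 (SE, adjusted p = 5.1e-05); its other probe set gave -0.44 and did not pass. HSPB1, a small heat shock protein that binds actin (named later), had 1848, 2713 and 2313 at 4 h and 3834, 4782 and 3694 at 8 h (0.84). Of 25 ER stress and secretory chaperone genes, CANX and SDF2L1 rose, DNAJB9 and ERN1 fell, ERN1 being called, and the median was -0.03.

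Of 57 genes of ribosome biogenesis and rRNA transcription, 12 rose, 45 had a positive change, and the median was 0.28, with no member called higher. FBL, the methyltransferase fibrillarin (named later), had 2408, 2615 and 2499 at 4 h and 3809, 4352 and 3486 at 8 h (0.62, adjusted p = 7.9e-04). NPM1, nucleophosmin (named later), had 15476, 13806 and 12345 at 4 h and 22381, 18845 and 20249 at 8 h (0.56, adjusted p = 0.018). The 1 member that fell was RCL1, a factor of 18S rRNA processing, with 5453, 4434 and 4914 at 4 h and 1136, 1589.9 and 1376 at 8 h, a log2 change of -1.85 ± 0.15 (SE, adjusted p = 2.3e-09). Of 32 genes of the MYC network and nucleotide synthesis, IMPDH2 was called higher, 7 rose and the MYC antagonist MNT fell. IMPDH2, the rate-limiting enzyme of guanine nucleotide synthesis, had 2591, 2306 and 2279 at 4 h and 5095, 5829 and 5084 at 8 h, a log2 change of 1.15 ± 0.13 (SE, adjusted p = 2.2e-07); the purine enzymes GMPS and ATIC (named later) rose by 0.72 and 0.49. Of 33 proteasome genes, 5 rose and none fell, PSME3 (an uncertain probe set) being called, where 5.53% of all genes rose. Of 29 tRNA synthetases and amino acid response genes, 6 rose (TRIB3 and 5 tRNA synthetases) and 3 fell (ATF4, PHGDH and CEBPG).

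Some cell cycle genes rose. Of 62 G1/S and DNA replication genes, 3 were called higher (CDC25A, MCM3 and CDC7) and 12 rose, against 1.28% and 5.53% of all genes. CCND3 fell, the list median was 0.30, and with a larger pseudocount none of the list was called. MCM3, a subunit of the replicative helicase, had 422, 445 and 368 at 4 h and 802, 936 and 882 at 8 h, a log2 change of 1.05 ± 0.18 (SE, adjusted p = 1.3e-04). MCM2 and MCM6 (named later) rose by 0.89 and 0.65. CCND1, cyclin D1, had 652, 758 and 589 at 4 h and 1369, 968 and 1059.5 at 8 h (0.74, adjusted p = 0.0043). Its kinase partner CDK4 (named later) had 1383, 1454 and 1293 at 4 h and 1933, 2523 and 2399 at 8 h (0.72). CDC25A, a phosphatase that activates CDK2, had 65.7, 55.4 and 18.4 at 4 h and 209, 129 and 137 at 8 h, a log2 change of 1.51 ± 0.36 (SE, adjusted p = 0.005), while its other probe set gave -1.29 and did not pass. In the promoters of this list, the E2F-like letters TTTNGCGC, on either strand, stood in 35.3% of 51, against 3.62% of those of tested genes and 2.17% of all in the table. They stood in 4.90% of the promoters of genes called higher and in 4.46% of those called lower. The 51 promoters are of tested members whatever their change, so their share describes the list and not the step. A match here too describes the sequence and not binding.

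Several genes of mitosis rose too, although dim. They are given singly, from the largest rises or named later, and no list count stands behind them as a group. CDCA8, the borealin subunit of the chromosomal passenger complex, had 26.5, 35.1 and 32.1 at 4 h and 182, 156 and 133 at 8 h, a log2 change of 1.83 ± 0.26 (SE, adjusted p = 1.1e-05). CDCA3, which promotes entry into mitosis, had 16.4, 44.0 and 20.2 at 4 h and 186, 146 and 147 at 8 h, a log2 change of 2.03 ± 0.40 (SE, adjusted p = 7.4e-04). CDC20, an activator of the anaphase-promoting complex (named later), had 131, 178 and 94.0 at 4 h and 381, 401 and 463 at 8 h (1.54). CCNB1, cyclin B1 (named later), had 186, 138 and 205 at 4 h and 468, 435 and 407 at 8 h (1.24). BARD1, the partner of BRCA1, rose by 1.77 and DTL, a substrate receptor of a replication-coupled ubiquitin ligase (named later), by 1.27. Apart from CCNB1, with 151 ± 15.9 and 176 ± 34.7, the mean at 4 h was below that at 0 h for each of these. CDC20 had 200.3 ± 41.6 at 0 h, 134 ± 41.9 by 4 h and 415 ± 42.6 by 8 h (SD, n = 3). For CDCA8 the 3 values were 226 ± 43.8, 31.3 ± 4.37 and 157 ± 24.5.

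Genes known as p53 targets went both ways. Of 23 CDK inhibitors and p53 targets, BAX and SESN1 were called higher, 7 rose (CDKN1A, TP53I3, BAX, FAS, SESN1, ZMAT3 and GDF15) and 5 fell (PMAIP1, GADD45A, GADD45B, PLK2 and CCNG1). Of all genes, 5.53% rose and 5.39% fell. BAX, a pro-apoptotic protein, had 666, 759 and 720.0 at 4 h and 1635, 1645 and 1577 at 8 h, a log2 change of 1.16 ± 0.18 (SE, adjusted p = 3.5e-05), and its other probe set gave 1.23. CDKN1A, the CDK inhibitor p21, had 1573, 2011 and 2118 at 4 h and 3001, 3243 and 2662 at 8 h (0.65, adjusted p = 0.0013). SESN1, a stress-induced inhibitor of mTORC1, had 302, 308 and 299.6 at 4 h and 703, 638 and 683 at 8 h (1.11). TIGAR, a regulator of glycolysis (named later), had 510.2, 576 and 564 at 4 h and 1209, 1328 and 1071 at 8 h (1.10). GADD45B (named later) fell by 0.86.

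The remaining largest rises were mostly of dim genes. PODXL, the anti-adhesive sialomucin podocalyxin, had 110.1, 26.7 and 19.98 at 4 h and 273, 215 and 301 at 8 h, a log2 change of 2.21 ± 0.42 (SE, adjusted p = 5.5e-04). SHANK2, a scaffold protein, had 94.0, 115 and 118 at 4 h and 314, 488 and 412 at 8 h (1.72). Its other probe sets gave 0.70 and 0.60. TRABD had 28.7, 38.9 and 34.4 at 4 h and 240.3, 192 and 158 at 8 h (2.03). CHN1, a GTPase-activating protein for Rac, had 91.1, 24.4 and 29.9 at 4 h and 232, 199 and 122 at 8 h (1.70). P2RX5, an ATP-gated channel, rose by 1.63. For the genes taken as largest rises, groups without overlap were a condition of the choice. SMAD6, an inhibitory SMAD, had 55.2, 95.6 and 71.7 at 4 h and 198, 229.9 and 255 at 8 h (1.43). SMAD3, which carries TGF-beta signals, fell from 985, 1079.8 and 832 to 376, 532 and 426 (-1.09). No other member of the 31 TGF-beta genes was called. LOC100131532, ANKZF1, GDF5, SPATA6L, KRT15, CSGALNACT1, TTLL4 and FAM234B rose as well. Their 4 h means ran from 8.37 for LOC100131532 to 36.4 for FAM234B. These lie near the pseudocount of 18, so the size of the changes is poorly set. GDF5 and SPATA6L had means above 73.8, the 40th percentile of all signals, at 8 h only. The filter may have admitted these genes through their 8 h arrays, so their rise is tied to that choice. The other TTLL4 probe set gave -0.655, and TTLL4 was called in only 7 of 16 settings, so its direction is uncertain.

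In other lists few members passed. Of 41 interferon response and antigen presentation genes, PSMB8 rose, IFI16 and IRF1 fell, and the median was 0.001. In glycolysis and hypoxia, 2 of 28 fell, HIF1A and EGLN1, the latter from an uncertain probe set. Of 22 IL-6, STAT and SOCS genes, IL6ST, IL1R1 and IL4R fell and SOCS2 rose. AKAP12, a kinase scaffold protein and bright at both times, had 24006, 25101 and 26888 at 4 h and 28150.4, 20186 and 30131 at 8 h (0.03), with overlap.

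From 8 h on, the median levels of the called genes stayed near those reached at 8 h, while single genes moved on. These values share arrays with the step, and the rule chose the genes by the 4 h and 8 h arrays, so they are a description. Of the 128 genes called higher, 74 had their lowest mean of the 8 times at 4 h, and their median level relative to 4 h was 1.27 by 8 h, 1.36 by 12 h and 1.24 by 48 h (log2). Of the 193 called lower, the highest mean fell on 4 h for 71, on 1 h for 64 and on 0 h for 47, and the lowest on 8 h for 70. Their median relative to 4 h was -1.35, -1.34 and -1.14 at those 3 later times. The quartiles widened: from 8 h to 48 h they went from 1.14 and 1.5 to 0.65 and 1.91 for the genes called higher, and from -1.63 and -1.12 to -1.84 and -0.40 for those called lower. AHR, for example, had 222 ± 52.2 by 8 h and 624 ± 62.7 by 48 h (SD, n = 3).

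**Figure D4:**
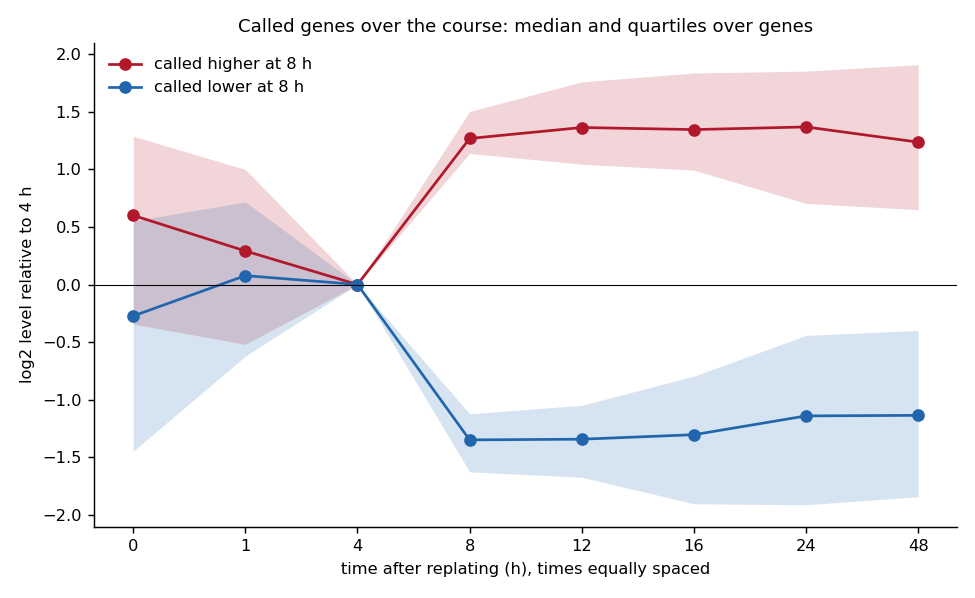
Median (points) and quartiles (bands) over genes of the log2 level relative to 4 h at each of 8 times, spaced equally, for the 128 genes called higher (red) and the 193 called lower (blue) from 4 h to 8 h. Both medians are at 0 at 4 h by construction, and from 8 h to 48 h they stay between 1.24 and 1.37 and between -1.35 and -1.14.

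The groups reached 4 h by different routes. The mean signal of CXCL1 went from 285 ± 104 at the outset to 6155 ± 516 after 1 h, then to 693 ± 187, 148 ± 10.8 and 244 ± 106 by 4, 8 and 12 h (SD, n = 3). Most of its descent thus came before 4 h. TNFAIP3, by contrast, had 8826 ± 631 after 1 h, 6746 ± 2170.1 after 4 h and 940.1 ± 99.9 after 12 h. CCL20 had 20300.4 ± 2743, 19986 ± 952 and 4978 ± 178 at the same times. IGFBP1 stood at 1993 ± 1263 at the outset, had 18737 ± 2249 after 1 h and ended at 863 ± 241. Of the liver enzymes, BAAT and CYP4F3 were highest before 4 h, while CYP1B1 had its highest mean, 1517 ± 87.0, at 4 h. BAAT had 6360.0 ± 319 after 1 h and 588 ± 91.2 after 48 h. CYP4F3 started at 7053 ± 388 and ended at 261 ± 49.7. CLDN1 and RCL1 had 0 h means of 302 ± 39.5 and 574 ± 85.8, under their levels at 4 h and 8 h. The 0 h means of CYP1B1, TNFAIP3 and CCL20 also lay under their levels at both times.

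Among the genes that rose, ANXA3 started at 57.5 ± 36.3 and had 1528 ± 141 after 12 h (SD, n = 3). RAC2 started at 178 ± 94.7, had 6207 ± 994 after 12 h and ended at 3143 ± 128. Both RAC2 and ACTN1 were already above their 1 h levels at 4 h. POSTN and CDC20 went on to 3796 ± 506 and 3335 ± 169 at 48 h, and LGALS1 to 13735 ± 1304. IMPDH2 had its lowest mean at 4 h and ended at 6159 ± 532. The log2 changes of the next step, 8 h to 12 h, which shares the 8 h arrays, were 0.59 ± 0.23 for ANXA3, 0.26 ± 0.22 for RAC2, 1.23 ± 0.17 for POSTN, -1.37 ± 0.21 for TNFAIP3 and -1.43 ± 0.25 for TDO2 (SE).

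**Figure D5:**
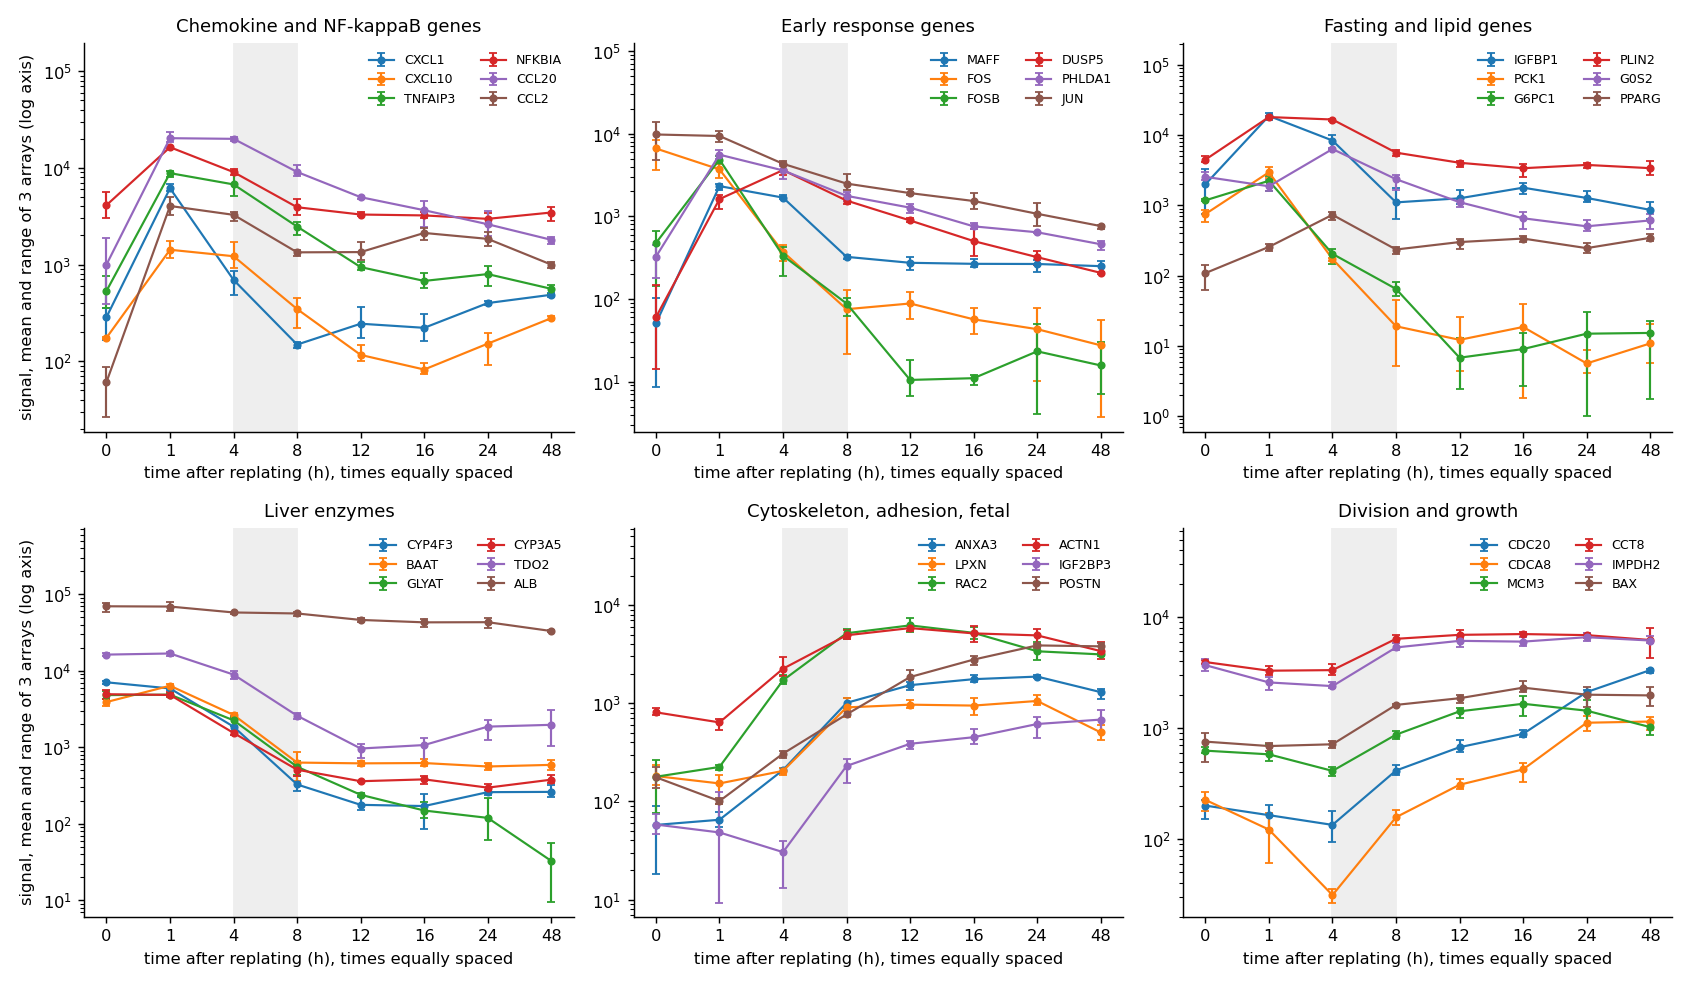
Mean signal (points) and range of the 3 arrays (bars) at each of 8 times, spaced equally, for 6 genes in each of 6 groups, on log axes; the grey band is the step from 4 h to 8 h. Chemokine and early response genes peak by 1 h or 4 h and descend through the band. Within the band, the liver enzymes descend with ALB almost level, and the genes of the last 2 panels climb.

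Where a called gene had another tested probe set, as 104 did, all its other sets changed in the same direction for 75, and 130 of the 162 other sets had the same sign. At least 1 other set reached 2-fold in the same direction for 36 genes. Of the 321 called genes, 15 are read from a probe set that can cross-hybridize. Besides the fold threshold, whose removal gave 551 higher and 537 lower, the pseudocount moved the call count by over 1.5 times in both directions: 67 genes were called higher and 124 lower with the larger one of 73.8, which weights down dim genes.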

How the data were processed

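Expression in 24 HepaRG samples, 3 at each of 8 times, was measured on a 1-colour Affymetrix array from 100 ng of RNA after 3' in vitro transcription, per the labels' protocols. The deposited values are linear intensities, and MAS5 is named in the submitters' processing notes. For its version and target level, nothing was found in the sources used. The mean signal of each array without the lowest and highest 2% of its probe sets was nearly equal across arrays (500.2 on 4 h replicate 1), so arrays had been scaled to a common level, and no normalization was added. No detection calls were used here. Precision is limited by the number of arrays.

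Signals entered as log2(signal + 18), 18 being the 20th percentile of all signals. Probe sets above the 40th percentile of their array on 3 or more of the 24 arrays were tested (17122 of 22215). Gene symbols were those of the array's annotation (1 symbol for 19065 probe sets, several for 1043, none for 2107). A gene was taken from its probe set with the highest mean and never from one with several symbols. Probe sets ending in _x_at, which can cross-hybridize, represent 763 of the 9966 genes.

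The contrast of 8 h with 4 h was fitted in R 4.3.3 with limma 3.58.1 (lmFit, eBayes with a mean-variance trend) over all 24 arrays, so that all times share one estimate of the spread. P-values are two-sided, with Benjamini-Hochberg adjustment over the 9966 genes. The model was tested on simulated data. Samples were grouped by the labelled time. Deviations of equally numbered arrays correlated at -0.03, -0.022 and -0.024, so the numbers do not pair the arrays.

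Named were the 20 largest rises and 20 largest falls among called genes with no overlap, up to 4 called members of each of 43 lists, and a set of liver, early response, clock and cell cycle genes. Some that meet this rule are not described. The comparison, its lists and its members were chosen with earlier results of these data known. Promoters were from RefSeq (GRCh38.p14); lists of cell type markers were read as summed signals. The alternatives were no or a larger pseudocount, quantile normalization, median centring, a stricter filter or none, averaged probe sets or each set alone, a fit of the 6 arrays only, no variance trend, the replicate block, no fold threshold and each replicate left out. Python 3.11.15 and matplotlib 3.10.9 drew the figures.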

Additional observations from a re-analysis of the deposited data

How the results depend on the processing

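The numbers of genes called higher and lower stayed within 1.5 times 128 and 193 under all alternatives except 2. With the larger pseudocount 67 were higher and 124 lower, and with no fold threshold 551 and 537. Leaving out single replicates gave 96 to 160 higher and 152 to 201 lower. With the replicate number as a block, which does not pair the arrays, 130 were higher and 189 lower. Of the called genes 39.9% were higher, against 44.9% with quantile normalization and 48.3% with median centring. Of 254 named genes, 131 were called, and 65 of these kept their call in every setting. TTLL4 alone reversed, to a log2 change of -0.978 without a pseudocount. Its other probe set gave -0.655 in the main setting. The probe set of highest mean was picked anew in each setting, and whether the reversal came from this was not tested. Signals near the pseudocount limit what can be said of dim genes.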
